A study of Oncorhynchus mykiss with 24 samples.

Results

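The animal and vegetal sections of trout eggs at 1 hour post fertilization (hpf) were compared, 3 libraries of section A (animal) against 3 of section B (vegetal). They were chosen by their stage and section labels, and are 6 of the 24 samples in the labels and of the 20 libraries in the count table. All groups were hybrids, eggs of Oncorhynchus mykiss (rainbow trout) fertilized with sperm of Salvelinus fontinalis (brook trout), and the sections with 1 replicate number came from the same egg. The labels call the 1 hpf material both a 1-cell fertilized egg and an early cleavage stage. For comparison, 0 hpf (labelled as non-fertilized in one place and as freshly fertilized in another, 2 libraries per section) and 1 day post fertilization (dpf, an early blastula of about 32 to 64 cells, 3 libraries per section) were used. TOMO-seq sequences the sections of a sample cut along 1 axis separately, here only 2 per egg. The maternal species had 22773 genes in the table, of which 22724 passed the filter on low counts.

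A fish egg is polarized before it is fertilized. At the animal pole lie the nucleus and the cytoplasm that will form the cells, and the vegetal side is filled with yolk. In oocytes of fish and frogs a set of maternal RNAs is carried to the vegetal cortex, where some mark the future dorsal side and others the germ plasm, the cytoplasm that marks out the germ line. After fertilization cytoplasm streams towards the animal pole and gathers in a blastodisc. The early embryo lives on such maternal RNA, because its own genome is not yet read.

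Each library was made from 70 ng of total RNA, whatever a section held, so a value is a share of the RNA of that section. The RNA per section is not given, and more RNA of a gene and less RNA of all the others cannot be told apart. Levels are CPM, the counts relative to the library's total as scaled with edgeR's TMM factors, and they are not divided by gene length. Library totals at 1 hpf ran from 8574091 to 9628963 counts, and 22260 to 22412 O. mykiss genes had counts. Gene symbols are the species' own or those of the zebrafish ortholog in a deposited table, and genes that share a symbol are told apart by their identifier in brackets. A difference is given as the log2 fold change of section A over section B with a standard error, so a gene lower in section A has a negative value. The standard error is the size of that change divided by the square root of the F statistic of edgeR's quasi-likelihood test. Adjusted p-values are those of the same test over all genes. Triplets of levels are eggs 1, 2 and 3 in that order.

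Egg 1 stood apart from eggs 2 and 3 in both sections. Across genes, which are not independent replicates, log CPM values of eggs 2 and 3 correlated at r = 0.980 in section A and 0.980 in section B. Egg 1 correlated with them at 0.936 and 0.934 in section A and at 0.918 and 0.920 in section B, but at 0.975 and 0.980 with replicates 1 and 2 of section A at 1 dpf. In section B it correlated at 0.963 and 0.969 with replicates 1 and 2 at 1 dpf and at 0.962 with replicate 1 at 3 dpf. Its likeness was thus to several libraries of later stages. The labels name no batch that would set egg 1 apart. Its sections also differed more from each other. Among the 15423 O. mykiss genes at or above the median level, the standard deviation of the log2 difference between the sections was 1.10 in egg 1, 0.839 in egg 2 and 0.913 in egg 3. Between the eggs these differences correlated at r = 0.896 (eggs 1 and 2), 0.908 (eggs 1 and 3) and 0.911 (eggs 2 and 3), and 11818 of the genes (76.6%) had 1 sign in all 3 eggs. The order of the genes was thus much alike in the eggs, while the size of the difference was largest in egg 1. Counts are therefore given below also as the range obtained when both sections of 1 egg were left out.

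**Figure D1:**
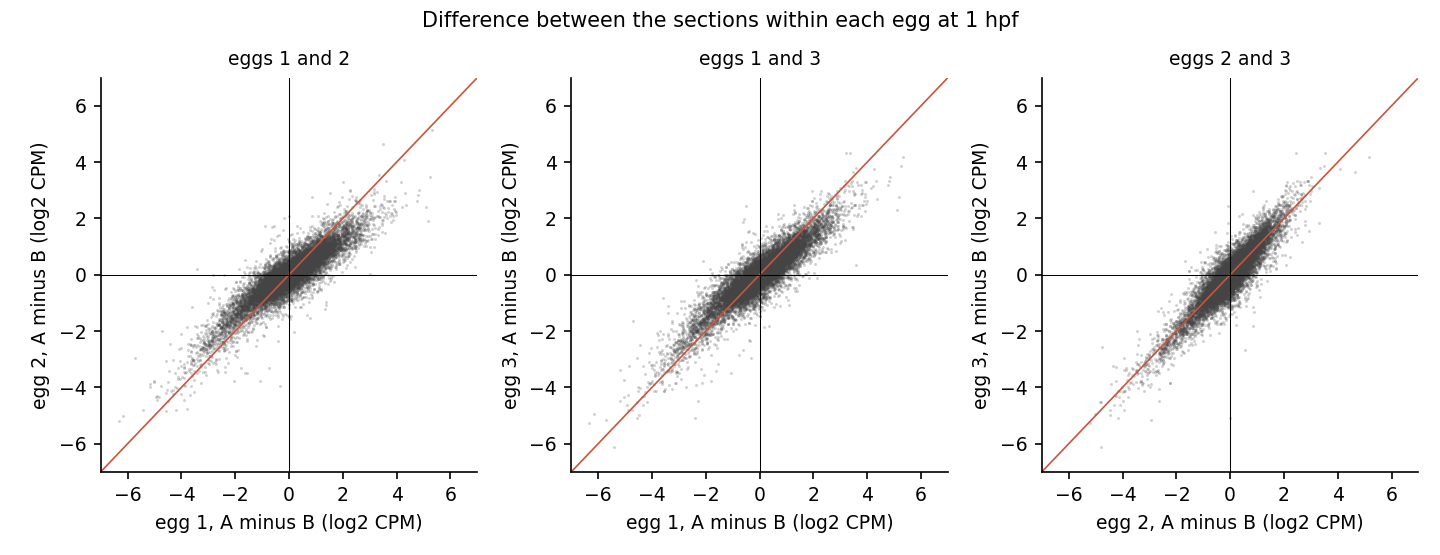
Difference between section A and section B (log2 CPM) of each of the 15423 O. mykiss genes at or above the median level, for the 3 pairs of eggs. Points along the red line have the same difference in both eggs. With egg 1 on the x axis the cloud is flatter than the line, as its differences spread wider (SD 1.10 against 0.839 and 0.913).

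The share of RNA differed between the sections for a large part of the maternal genes. edgeR's quasi-likelihood test called 5527 of the 22724 O. mykiss genes (24.3%) at an adjusted p under 0.05, 2848 higher in section A (12.5%) and 2679 lower (11.8%). In 5520 of them the sign was the same in the 3 eggs, and in 5466 the 3 values of one section lay outside those of the other. The calls were made from these same libraries, so both counts are a description and no added support. Of the genes at or above the median level, called or not, 76.6% had 1 sign in the 3 eggs. The share without overlap over all genes is not given. Genes that were not called, such as iqgap3 and mos, also had sections that did not overlap, so the count of 5466 has no background here. Differences were large more often on the vegetal side: 314 genes were higher in section A by at least 2 on the log2 scale and 611 lower, and 48 were higher by at least 3 against 183 lower. The median size of a called difference was 1.15 for the higher and 1.25 for the lower genes, and the median log2 fold change of all genes was −0.03. Without egg 1 the test called 1548 genes higher and 1585 lower, without egg 2 1868 and 1859, and without egg 3 1646 and 1738. With the egg as a block it called 8067 genes (35.5%), 4097 higher (18.0%) and 3970 lower (17.5%), among them 2843 of the 2848 higher and 2670 of the 2679 lower genes, and 0 with the opposite sign.

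The share of genes called depended on their level. In the quintile of the genes with the lowest levels (0.554 to 4.31 CPM) 1.63% were called higher and 2.35% lower, and in that with the highest (66.0 to 2164 CPM) 24.9% and 24.1%. The median size of the difference, called or not, was 0.596 and 0.519 on the log2 scale in these quintiles. A gene of low level that was not called was thus not shown to be even between the sections. Of 424 long non-coding RNAs, 7 were called higher and 44 lower, against 2822 and 2626 of 22210 protein-coding genes. Those called were thus mostly vegetal, but the share called lower was not above that of protein-coding genes. The imbalance lay in the small share called higher. The levels of these RNAs are not given, and their part in these counts was not tested.

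**Figure D2:**
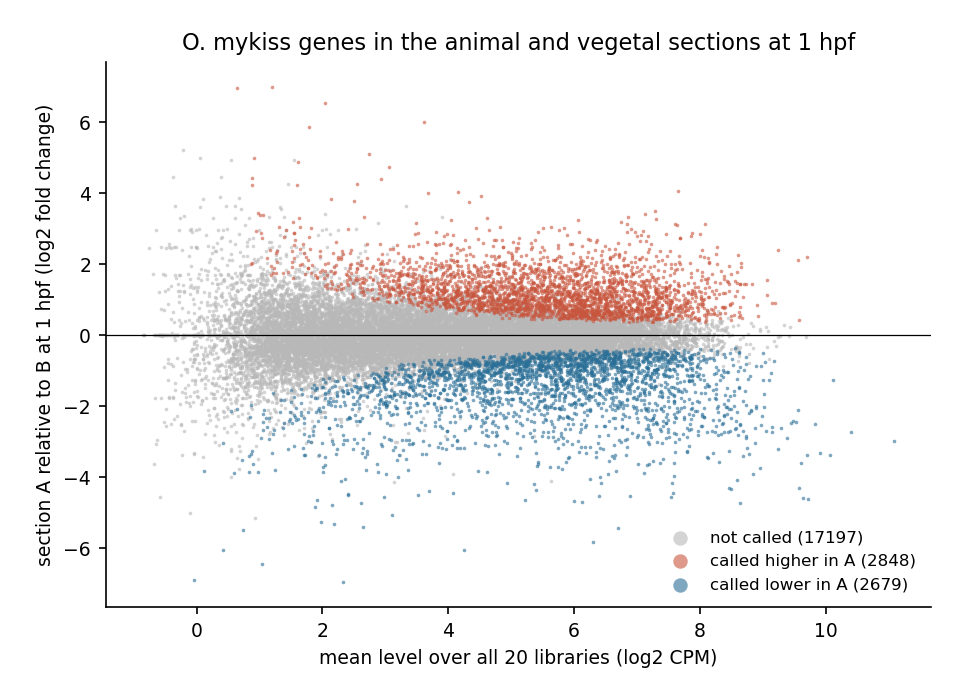
Log2 fold change of section A relative to section B at 1 hpf against the mean level (log2 CPM) of the 22724 O. mykiss genes tested. Red points are the 2848 genes called higher in section A, blue points the 2679 called lower, and grey points were not called; calls thin out at low levels and reach farther from 0 on the vegetal side.

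RNAs known from the vegetal pole in fish or frogs were lower in section A. Of the 30 genes tested from this list, 0 were higher and 20 lower, with a median log2 fold change of −1.82, and 20 were lower with any 1 egg left out. The shares were 0% and 66.7%, against 12.5% and 11.8% of all genes and 24.9% and 24.1% of the quintile with the highest levels. The genes called lower belong to 11 of the 15 symbols. hwa codes for a maternal membrane protein that sets the dorsal side in zebrafish and frogs, and both its copies were lower. The hwa gene of that name measured 2.63, 2.93 and 2.05 CPM in section A of eggs 1, 2 and 3 against 85.8, 62.5 and 43.7 in section B (log2 fold change −4.64 ± 0.53, adjusted p = 6.43e-06). Its copy (LOC110509564) measured 1.54, 5.16 and 3.75 against 58.6, 76.1 and 52.95 CPM, with a log2 fold change of −4.16 ± 0.52 (adjusted p = 1.48e-05). No animal value of either copy came near a vegetal one. The sections of trim36, which codes for a ubiquitin ligase needed for dorsal axis formation in frogs, were as far apart in the copy LOC110525254, with 75.7, 65.04 and 38.6 against 1716, 1455 and 1220 CPM and a log2 fold change of −4.61 ± 0.41 (adjusted p = 4.05e-07). Its other copy (LOC110535019) measured 101, 119.5 and 91.4 against 984, 837 and 735 CPM and was lower at −3.03 ± 0.25 (adjusted p = 2.05e-07).

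The list also holds scaffold and transport genes. grip2b (LOC110492486), a gene for a scaffold protein with many PDZ domains, had 29.6, 29.1 and 19.8 CPM in A against 887, 647 and 557 in B, −4.73 on the log2 scale (adjusted p = 8.56e-07). Its copy (LOC110531951) was at 2.30, 11.2 and 13.6 against 12.6, 89.8 and 91.4 CPM, with both sections of egg 1 well below those of the other eggs and a log2 fold change of −2.83 ± 0.62 (adjusted p = 0.00292). sybu codes for syntabulin, which joins kinesin to its cargo and is needed for the dorsal determinants to move in zebrafish. In egg 1 the copy LOC110489853 measured more than in the other eggs in both sections, 156, 66.9 and 68.8 CPM in A against 1550, 552 and 605 in B, and the log2 differences within the eggs were −3.31, −3.04 and −3.13. rtn3, a gene for a reticulon of the endoplasmic reticulum, had 3 copies that were all lower, at −2.22, −1.83 and −1.51.

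Not all members of the list were called. wnt8a (LOC110489479), the gene of a Wnt ligand that acts from the vegetal pole of zebrafish eggs, measured 5.05, 1.82 and 0.682 CPM in A against 42.6, 3.94 and 4.58 in B. Its vegetal level was high in egg 1 alone, and the log2 fold change of −2.75 ± 1.55 did not pass the test (adjusted p = 0.275), but passed with the egg as a block (adjusted p = 0.00195). The otx1 gene, for a homeobox factor, measured more in egg 1 than in the others in both sections, 51.1, 11.5 and 6.25 against 76.1, 15.4 and 13.4 CPM, and was likewise called only with the block (adjusted p = 0.704 without and 0.00674 with). wnt11f2, the gene of another Wnt ligand, measured 0.548, 2.93 and 2.84 against 0.858, 4.70 and 2.85 CPM and was called in neither fit (adjusted p = 0.824 and 0.719).

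**Figure D3:**
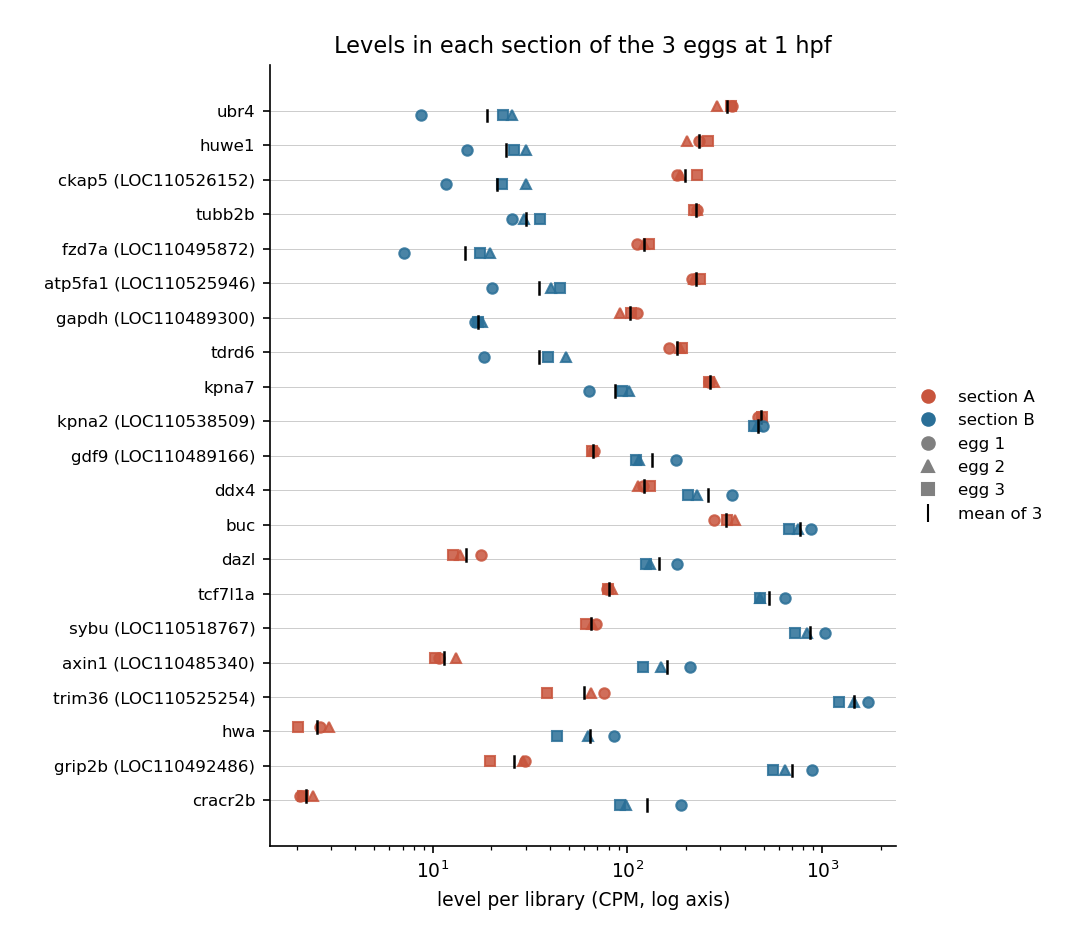
Levels (CPM, log axis) of 21 O. mykiss genes in section A (red) and section B (blue) of the 3 eggs at 1 hpf; circles, triangles and squares are eggs 1, 2 and 3, and black ticks are means of 3. From top to bottom the genes pass from higher in section A to higher in section B, with kpna2 (LOC110538509) at the same level in both, and egg 1 often holds the extreme value in section B.

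Genes whose RNA is known from the animal side of frog or fish eggs were less uniform. Of 30 tested, 10 were higher in section A and 2 lower, with a median log2 fold change of 0.04. These are 33.3% and 6.67%, against 12.5% and 11.8% of all genes and 24.9% and 24.1% of the quintile with the highest levels. With 1 egg left out the counts were 6 to 7 higher and 1 to 2 lower, and with the egg as a block 10 and 6. Among the genes higher in section A the steepest were the 3 copies of atp5fa1, the gene of the ATP synthase alpha subunit, whose frog counterpart is one of the first RNAs found at the animal pole. The copy LOC110525946 measured 215, 221 and 236 CPM in A against 20.2, 40.7 and 44.9 in B, and the 3 log2 fold changes were 2.66 ± 0.47, 2.51 ± 0.40 and 2.52 ± 0.46 (adjusted p = 0.000472, 0.000177 and 0.000685). kpna2, the gene of an importin alpha, had 4 copies, of which 3 were higher (by 1.18, 0.99 and 0.43) and 1 (LOC110538509) stood at 467, 492 and 491 against 497, 464 and 444 CPM. Against the list's name, tcf7l1a, a gene for a repressor of Wnt target genes, was lower in section A, with 78.9, 82.8 and 78.98 against 642, 479 and 480.1 CPM. Its copy (LOC110536043) stood at only −0.57 ± 0.24 and was called only with the block (adjusted p = 0.129 without, 0.0359 with). gdf3, the gene of a growth factor that works with Nodal, was also lower (−0.83 ± 0.18, adjusted p = 0.00276), a call that was lost without egg 1. The genome activator pou5f3 was called higher in 1 of 2 copies, by 0.43 ± 0.14 (adjusted p = 0.0446). This call, and that of the kpna2 copy at 0.43, were lost without any 1 of the eggs.

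Among germ plasm RNAs and piRNA pathway genes, those called were mostly lower in section A. Of 32 tested, 3 were higher in section A and 10 lower, with a median log2 fold change of −0.29. With 1 egg left out 1 to 2 were higher and 10 lower, and with the egg as a block 6 and 13. The shares were 9.4% and 31.25%, against 12.5% and 11.8% of all genes and 24.9% and 24.1% of the quintile with the highest levels. On the vegetal side was dazl, a gene for an RNA-binding protein of the germ line, with 17.7, 13.9 and 12.7 CPM in A against 179, 129.8 and 125 in B. gra, a germ plasm RNA in zebrafish, had 19.96, 29.6 and 17.1 against 176, 104 and 113 CPM. hook2, a gene for a microtubule adaptor, was lower at −2.38 ± 0.27 (adjusted p = 5.99e-06), and ddx4, the gene of the helicase Vasa, at −1.09 ± 0.21 (adjusted p = 0.00111). A copy of hook2 (LOC110538478) stood at −0.74 ± 0.27 and was called only with the block (adjusted p = 0.068 without, 0.00238 with). buc organizes the Balbiani body in zebrafish oocytes, and its 3 copies were graded: −2.08 for LOC110489830, −1.26 for buc and −0.24 ± 0.21 for LOC110535186, which did not pass the test (adjusted p = 0.520).

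The germ granule gene tdrd6 lay on the other side. Its protein binds Bucky ball in zebrafish, and its RNA measured 163, 186 and 190 CPM in A against 18.4, 48.6 and 39 in B, with a log2 fold change of 2.35 ± 0.37 (adjusted p = 0.000177). The vegetal value of egg 1 was the lowest. tdrkh and mov10l1, both of the piRNA pathway, were also called higher (0.78 and 0.94), but tdrkh lost its call without egg 1 or 3 and mov10l1 without egg 2 or 3. piwil1, the gene of a piRNA-binding Argonaute, was nearly level, at 168, 172 and 169 against 161, 172 and 163 CPM. Further piRNA pathway genes were not called either. asz1, fkbp6, piwil2, tdrd5, tdrd7a and tdrd9 passed in neither fit, and rnf17, tdrd1 and tdrd12 were called higher only with the block.

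Among genes of the Wnt and beta-catenin pathway (66), 9 were higher in section A and 17 lower, with a median log2 fold change of −0.11. With 1 egg left out they were 6 to 7 higher and 14 to 15 lower, and with the block 14 and 22. The shares were 13.6% higher and 25.8% lower, against 12.5% and 11.8% of all genes and 24.9% and 24.1% of the quintile with the highest levels. axin1 (LOC110485340), the gene of the scaffold on which beta-catenin is marked for destruction, measured 10.8, 13.2 and 10.2 CPM in A against 209.9, 149 and 119.7 in B. In contrast, the Wnt receptor gene fzd7a was higher in both copies. The first (LOC110495872) measured 112, 121 and 129.6 against 7.11, 19.6 and 17.5 CPM, and the second (LOC110527486) was higher by 1.87 ± 0.23 (adjusted p = 1.38e-05). csnk1g2a, a casein kinase gene, was higher by 1.69 ± 0.24 (adjusted p = 5.50e-05).

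In the Nodal and BMP pathway 2 genes were higher and 8 lower of 43, with a median of −0.06 (2 higher and 3 to 6 lower with 1 egg left out). These are 4.65% and 18.6%, against 12.5% and 11.8% of all genes. The growth factor genes bmp15 and gdf9, which oocytes use to signal to their follicle, were lower in section A, bmp15 with 104, 119 and 109 against 298, 280 and 249 CPM. The call of the gdf9 gene of that name was lost without egg 1, and that of its copy (LOC110489166) was kept. The type I receptor gene acvr1bb (LOC110528117) was lower at −1.63 ± 0.21 (adjusted p = 2.74e-05). Higher were tgfbr2b (LOC110496033), a type II receptor gene, by 1.67 ± 0.22 (adjusted p = 2.61e-05), and foxh1 (LOC110535310), a gene for a transcription factor of the Nodal response, with 145, 119 and 129 against 55.8, 61.5 and 58.2 CPM.

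Genes of the cytoskeleton were more often called higher than lower in section A. The shares were 36.4% higher and 9.32% lower in the centrosome list, 35.5% and 19.35% in the motor list and 26.45% and 16.5% in the actin list. Over all genes they were 12.5% and 11.8%, and in the quintile with the highest levels 24.9% and 24.1%. The share of the actin list called higher was thus near that of this quintile. In the centrosome, spindle and tubulin list (118 genes), 43 were higher in section A and 11 lower, with a median log2 fold change of 0.53, and 28 to 38 higher and 6 to 7 lower with 1 egg left out. ckap5, the gene of a microtubule polymerase, and the beta-tubulin gene tubb2b were among the genes higher in section A, and tubb2b measured 229, 228 and 219 CPM in A against 25.6, 29.3 and 35.5 in B. The end-binding gene mapre3b (LOC110529242) was lower, at 3.40, 3.74 and 2.61 against 30.1, 27.1 and 31.5 CPM, and so was the centrosomal gene cep72 (−3.67 ± 0.32, adjusted p = 2.92e-07). Of 124 genes of kinesins, dyneins and myosins, 44 were higher in section A and 24 lower, with a median log2 fold change of 0.52 (27 to 32 higher and 21 to 23 lower with 1 egg left out). The kinesin gene kif1b was higher, with 149.9, 152 and 174 against 22.8, 33.7 and 31.3 CPM. dync1h1, the heavy chain gene of cytoplasmic dynein, measured 156, 115 and 157 against 4.04, 30.4 and 22.9 CPM, and the call was lost without egg 1. The non-muscle myosin gene myh9a (LOC110485098) was lower, with 239, 153 and 151 against 911, 1163 and 955 CPM. Of 121 genes of the actin cytoskeleton, 32 were higher in section A and 20 lower, with a median log2 fold change of 0.18 (19 to 21 higher and 9 to 13 lower with 1 egg left out), with actb1 (LOC110512094) on the animal side (2.69 ± 0.42, adjusted p = 0.000156) and the tropomyosin gene tpm3 (LOC110496358) on the vegetal side (−2.69 ± 0.23, adjusted p = 2.68e-07).

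Among genes of the machinery that makes protein more were called higher than lower in section A, although most members did not pass the test. Of 129 genes of cytosolic ribosomal proteins, 53 were higher in section A and 0 lower, with a median log2 fold change of 1.25, and 28 to 32 higher and 0 lower with 1 egg left out. These are 41.1% and 0%, against 12.5% and 11.8% of all genes. rpl5b (LOC110521719) measured 80.2, 67.4 and 62.3 CPM in A against 15.1, 16.6 and 18.8 in B. Translation initiation and elongation genes (103) gave 36 higher (34.95%) and 6 lower (5.8%), with a median of 0.51 (23 to 34 higher and 2 to 3 lower with 1 egg left out). eif3c (LOC110498804), of the initiation factor that binds the small subunit, measured 54.8, 50.7 and 54.1 against 4.53, 7.55 and 6.92 CPM. An exception was eif4e3 (LOC110492170), a cap-binding protein gene, with 2.19, 1.72 and 1.82 against 11.5, 16.9 and 15.3 CPM. With 17.9% called higher, near the 12.5% of all genes, mitochondrial ribosomal proteins were 12 higher and 2 lower of 67 (3 to 5 higher and 0 lower with 1 egg left out).

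Regulators of stored RNA were called on both sides, at shares near those of all genes (17.4% higher and 16.2% lower, against 12.5% and 11.8%) and below those of the quintile with the highest levels (24.9% and 24.1%). Of 167 genes of the CPEB, poly(A) and repressor list, 29 were higher in section A and 27 lower, with a median log2 fold change of −0.01 (14 to 18 higher and 17 to 19 lower with 1 egg left out, 36 and 41 with the block). caprin2 (LOC110500170), for an RNA granule protein, was higher by 2.45 ± 0.42 (adjusted p = 0.000345), while celf1 (LOC110526187), for a translational regulator, was lower, at 20.2, 29.03 and 19.8 against 189, 184 and 160.3 CPM. Of 93 deadenylation and decay genes, 20 were higher in section A (21.5%) and 8 lower (8.60%), with a median log2 fold change of 0.18 (12 to 13 higher and 5 to 6 lower with 1 egg left out, 31 and 14 with the block). cnot4a (LOC110524813), of the CCR4-NOT deadenylase, was higher by 2.20 ± 0.28 (adjusted p = 1.70e-05). pan3 (LOC110489660), of the deadenylase that acts first on long tails, was lower, with 121, 139 and 117 CPM in A against 958, 705 and 653 in B.

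Glycolysis had the highest share of animal genes of the 31 lists. Of 32 genes tested, 23 were higher in section A and 1 lower, with a median log2 fold change of 1.39. With 1 egg left out 13 to 20 were higher and 1 lower, and with the block 24 and 1. The shares were 71.9% and 3.1%, against 12.5% and 11.8% of all genes. eno1b, an enolase gene, measured 58.8, 52.7 and 61.03 CPM in A against 9.31, 9.08 and 9.88 in B. The gapdh copy LOC110489300 measured 112, 91.03 and 104 against 16.4, 17.8 and 17.1 CPM. Within each section the 3 eggs were close for both genes. The exception was a copy of ldhbb (LOC110500186), a lactate dehydrogenase gene, that was lower at −1.27 ± 0.28 (adjusted p = 0.00343), while another copy (LOC110490189) was higher by 1.83 ± 0.26 (adjusted p = 5.27e-05). Nuclear genes of oxidative phosphorylation (70) were 32 higher (45.7%) and 1 lower (1.43%), with a median of 1.01 (18 to 24 higher and 1 lower with 1 egg left out). The lower one was sdhc, of the succinate dehydrogenase, with 4.83, 7.28 and 6.59 against 43.4, 26.5 and 27.3 CPM.

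Among genes of protein turnover and folding more were called higher than lower in section A. The shares were 46.6% higher and 1.72% lower of the proteasome, 32.0% and 10.4% of the ubiquitin ligase, and 37.6% and 16.8% of the chaperone genes. Over all genes they were 12.5% and 11.8%, and in the quintile with the highest levels 24.9% and 24.1%. The majority in each list were not called higher. Of 58 proteasome genes, 27 were higher in section A and 1 lower, with a median log2 fold change of 0.76 (17 to 19 higher and 1 lower with 1 egg left out, 34 and 3 with the block). The core subunit gene psma5 measured 56.3, 47.3 and 40.2 against 10.4, 14.6 and 13.3 CPM, and the gene called lower was the activator psme3 (LOC110538407), at −0.88 ± 0.21 (adjusted p = 0.00519). Of 125 ubiquitin ligase genes, 40 were higher in section A and 13 lower, with a median log2 fold change of 0.22 (26 to 31 higher and 8 to 9 lower with 1 egg left out). Here were the genes of very large ligases: ubr4 measured 343, 287 and 340.3 CPM in A against 8.70, 25.6 and 23.01 in B, herc2 134, 191 and 225 against 6.49, 25.6 and 22.4, and huwe1 233, 203 and 259 against 14.9, 29.97 and 26.2. In all 3 the vegetal value of egg 1 was the lowest. Chaperones (101) were 38 higher and 17 lower, with a median of 0.35 (30 to 32 higher and 10 to 13 lower with 1 egg left out). The cytosolic chaperone gene hsp90bb was higher by 2.30 ± 0.32 (adjusted p = 4.19e-05), and dnajb9a (LOC110490251), of the endoplasmic reticulum, lower at −2.87 ± 0.27 (adjusted p = 7.87e-07).

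Of the 221 chromatin regulators, 111 were higher in section A and 15 lower, with a median log2 fold change of 0.65, and 64 to 87 higher and 11 to 13 lower with 1 egg left out. These are 50.2% and 6.79%, against 12.5% and 11.8% of all genes and 24.9% and 24.1% of the quintile with the highest levels. The histone methyltransferase genes kmt2cb and kmt2d were higher, kmt2d (LOC110532701) with 442, 415 and 496 against 28.7, 86.3 and 72.4 CPM. ino80, the gene of a chromatin remodeler, was among the 15 that were lower. It measured 36.3, 29.9 and 23.9 CPM in A against 726, 567 and 478 in B, and its log2 difference was −4.31, −4.23 and −4.31 in the 3 eggs. The remodeler gene srcap was lower at −3.41 ± 0.23 (adjusted p = 7.70e-08). The DNA methyltransferase genes dnmt1 (LOC110486372) and dnmt3bb.2 (LOC110492303) were level between the sections, dnmt1 at 692, 678 and 736 against 684, 781 and 685 CPM. The chromatin list thus held genes of high level at both extremes and in between.

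Nuclear pore and import genes (93) were 45 higher and 9 lower, with a median of 0.64 (32 to 37 higher and 6 to 8 lower with 1 egg left out). Importin alpha genes, which code for adaptors that carry cargo into the nucleus, stood on both sides. kpna7, a maternal one, measured 261, 279 and 261 CPM in A against 63.2, 101 and 93.4 in B. kpna3 (LOC110501294) measured 14.5, 16.2 and 6.59 against 347, 299.6 and 233 CPM, and its copy (LOC110520522) and kpna6 (LOC110487858) were lower at −2.63 ± 0.22 and −2.53 ± 0.17 (adjusted p = 2.60e-07 and 7.70e-08). In the splicing list (126) 29 genes were higher and 10 lower (14 to 20 higher and 4 to 5 lower with 1 egg left out, 39 and 19 with the block), with the core genes snrnp200 (LOC110525610) and prpf8 (LOC110507678) higher by 2.98 and 2.66. RNA polymerase II machinery (112) gave 28 and 5 (14 to 22 higher and 2 to 3 lower with 1 egg left out, 35 and 11 with the block). The shares called higher were 48.4% of the nuclear pore and import list and 23.02% of the splicing list. Called lower were 9.68%, 7.94% and 4.46% of the nuclear pore, splicing and RNA polymerase II lists. Over all genes 12.5% were higher and 11.8% lower, and in the quintile with the highest levels 24.9% and 24.1%. The shares of splicing and RNA polymerase II genes called higher were thus near that of this quintile. No animal excess is read from them. Of 11 histone genes 0 were higher and 4 lower (36.4%), h2ax (LOC110534249) at −1.13 ± 0.22 (adjusted p = 0.00124), and 0 higher and 1 lower with 1 egg left out.

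Oocyte and cell cycle genes were called on both sides. The shares were 25.7% higher and 20% lower of the oocyte genes and 21.7% and 13.9% of the cyclin and mitosis genes, against 12.5% and 11.8% of all genes and 24.9% and 24.1% of the quintile with the highest levels. They are given as a description of these genes, with no excess read from them. Of 35 maternal oocyte genes, 9 were higher in section A and 7 lower, with a median log2 fold change of −0.46 (4 to 5 higher and 2 to 4 lower with 1 egg left out, 9 and 16 with the block). zar1l, for a protein that binds maternal RNA, was higher, with 374, 389.5 and 396 against 142, 179 and 170.2 CPM. zar1 (LOC100136720) itself was level, at 46.4, 65.04 and 57.7 against 52.3, 61.4 and 53.4 CPM. Cyclin B1 had 3 copies: LOC110506456 was called higher (0.82 ± 0.26, adjusted p = 0.0315, lost without any 1 of the eggs), LOC110523559 was level (0.04 ± 0.25, adjusted p = 1.00), and LOC100136690 measured 350.5, 361 and 277 against 582, 528 and 532 CPM and was called only with the block (adjusted p = 0.0737 without, 0.000423 with). Of 115 genes of cyclins and mitosis, 25 were higher in section A and 16 lower, with a median log2 fold change of 0.12 (12 to 18 higher and 7 to 10 lower with 1 egg left out, 32 and 28 with the block), with the kinetochore gene cenpe higher by 2.05 ± 0.30 (adjusted p = 7.26e-05) and the condensin II gene ncaph2 lower at −1.52 ± 0.17 (adjusted p = 3.80e-06). Of 30 replication licensing genes, 10 were higher (33.3%) and 8 lower (26.7%), and 6 to 7 higher and 2 to 3 lower with 1 egg left out. orc1, of the origin recognition complex, measured 362, 348 and 426 against 82.3, 108 and 90.2 CPM. Early embryo transcription factors (65) were 5 higher and 5 lower, 7.69% each and below the shares of all genes. With 1 egg left out 3 were higher and 1 to 2 lower, and with the block 6 and 16. Among the lower ones was e2f7 (LOC110499754), at −2.26 ± 0.34 (adjusted p = 0.000116).

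Calcium signals start development when the egg is fertilized, and genes of egg activation and calcium handling were more often vegetal. Of 80 tested, 12 were higher in section A and 25 lower, with a median log2 fold change of −0.20 (7 to 9 higher and 19 to 22 lower with 1 egg left out). The share called lower was 31.25%, against 11.8% of all genes and 24.1% of the quintile with the highest levels. The share called higher lay between the 12.5% of all genes and the 24.9% of that quintile. cracr2b, the gene of a calcium-binding regulator of store-operated channels, measured 2.08, 2.43 and 2.16 CPM in A against 188, 98.7 and 92.05 in B, and the log2 difference was −5.81 ± 0.63 (adjusted p = 3.46e-06). CaM kinase II genes, which code for a kinase switched on by the calcium signal, were lower as well, camk2g2 (LOC110491356) with 42.3, 51.8 and 41.7 against 434, 299 and 290 CPM. The calcium release channel gene itpr2 (LOC110497694) and the calcium pump gene atp2b2 (LOC110493206) were on the animal side, itpr2 with 152, 165 and 188 against 21.8, 42 and 41.8 CPM.

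Solute carriers were the longest list with a vegetal excess. Of 213 tested, 13 were higher in section A and 55 lower, with a median log2 fold change of −0.36 (5 to 7 higher and 33 to 43 lower with 1 egg left out). These are 6.10% and 25.8%, against 12.5% and 11.8% of all genes and 24.9% and 24.1% of the quintile with the highest levels. slc7a6, an amino acid transporter gene, measured 17, 16.1 and 9.32 CPM in A against 136, 134 and 107 in B. The mitochondrial iron importer gene slc25a37 was lower at −2.56 ± 0.21 (adjusted p = 2.37e-07), and the ADP/ATP carrier gene slc25a5 higher by 1.17 ± 0.22 (adjusted p = 0.00102). Genes of lipoprotein uptake and yolk processing (69) were 7 higher and 16 lower (6 higher and 12 to 15 lower with 1 egg left out, 14 and 23 with the block), among them pnpla8 (LOC110500006), a lipase gene, with 52.4, 41.1 and 31.4 against 507, 372 and 339.7 CPM. The shares of this list were 10.1% higher and 23.2% lower, the latter near the 24.1% of the quintile with the highest levels. Of 289 genes of vesicle coats, Rabs and tethers, 78 were higher in section A and 56 lower, with a median log2 fold change of 0.15 (47 to 50 higher and 40 to 50 lower with 1 egg left out). These are 27.0% and 19.4%, near the shares of the quintile with the highest levels, and no excess is read from them. The Golgi tether gene golgb1 was higher by 1.98 ± 0.43 (adjusted p = 0.00248). A clathrin heavy chain gene, cltca (LOC110536181), measured 42.9, 33.4 and 31.03 CPM in A against 780, 551 and 492 in B, and the Rab genes rab3a and rab6a were lower at −3.78 ± 0.42 and −3.20 ± 0.35 (adjusted p = 4.63e-06 and 3.80e-06).

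Over the 31 lists, 22 had more members higher than lower in section A, 8 more lower, and 1 as many of each. With the egg as a block the split was 20 and 11, and with plain library sizes 23 and 8. These lists were chosen with earlier results known, some genes stand in several of them, and copies of 1 gene count separately, so the split is a description.

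**Figure D4:**
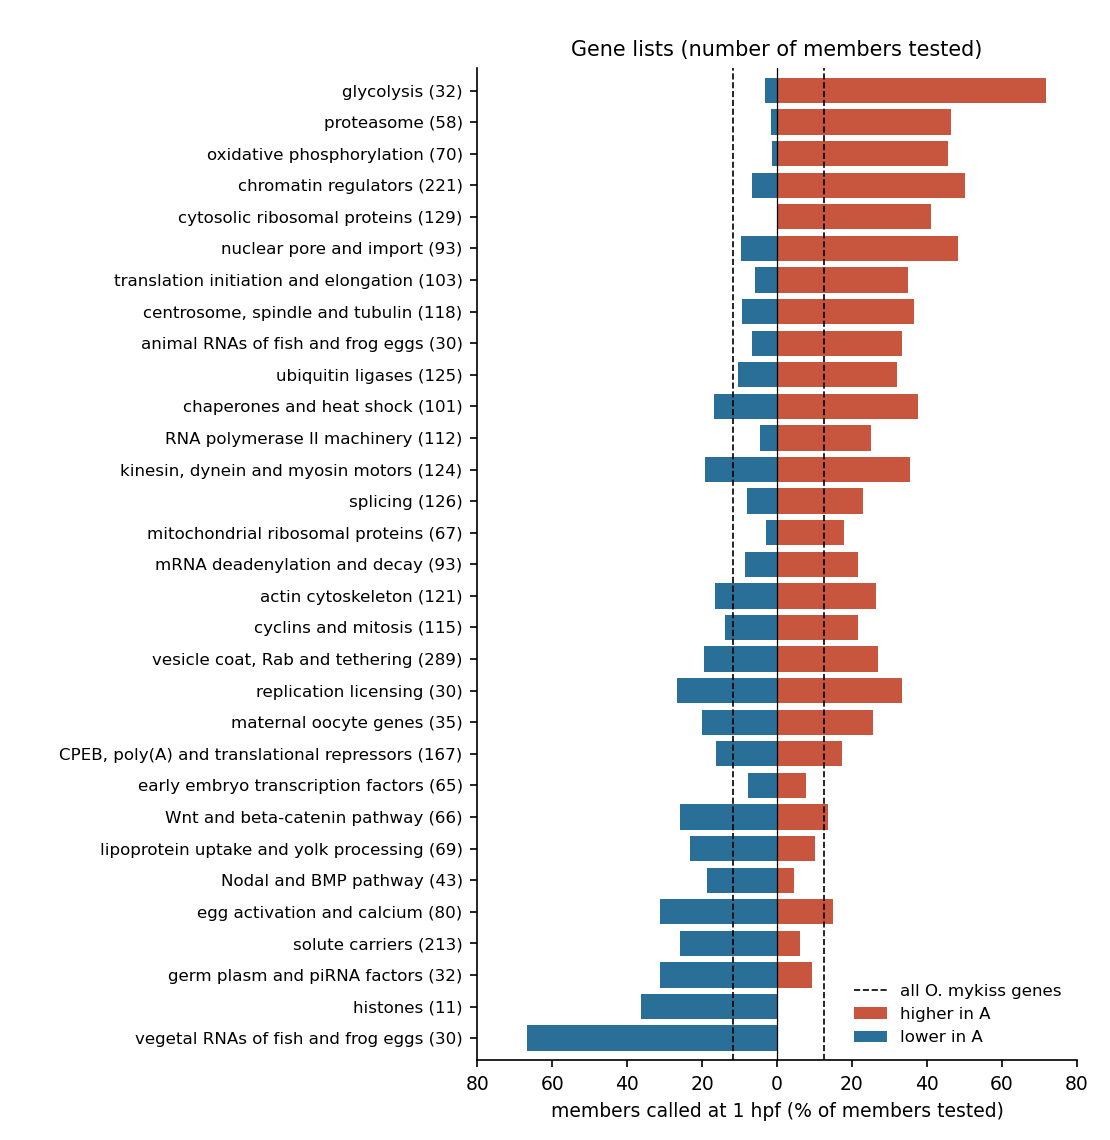
Percent of the tested members of each of 31 gene lists that were called higher (red, to the right) or lower (blue, to the left) in section A at 1 hpf, with the number of members tested in brackets. The dashed lines are the shares over all O. mykiss genes tested, 12.5% and 11.8%; glycolysis reaches 71.9% on the animal side and the vegetal RNAs 66.7% on the vegetal side.

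The 15 genes with the largest differences on each side, by the rule for named genes, include ubr4, both copies of huwe1, herc2, ckap5, kmt2cb and eif3c on the animal side and cracr2b, grip2b, hwa, trim36, kpna3 and ino80 on the vegetal side. Of the others, dst (LOC110499368), a gene for a giant linker of the cytoskeleton, measured 19.6, 8.70 and 9.77 CPM in A against 0.245, 0 and 0.305 in B, too few counts in B for a fold. stk40 (LOC110489088), a pseudokinase gene, measured 260.2, 295 and 330.3 against 14.5, 29.6 and 38.5 CPM, and mdn1 (LOC110529504), of ribosome assembly, 160.3, 155 and 180.5 against 17.6, 20.8 and 17.7. exd2, an exonuclease gene, was higher by 3.12 ± 0.34 (adjusted p = 3.41e-06), and btr26 (LOC110531534), of the TRIM family, by 3.12 ± 0.29 (adjusted p = 7.13e-07). stard13b was higher by 3.92, and ccser2b (LOC110499014) by 3.29, a call that was lost without egg 1 or egg 3. On the vegetal side gipc2 (LOC110508261), a PDZ adaptor gene, measured 4.94, 6.88 and 4.32 against 158, 144 and 113 CPM. abhd17aa (LOC110521485), a depalmitoylase gene, and pip4p2 (LOC110504292), a lipid phosphatase gene, were lower at −4.53 ± 0.42 and −4.51 ± 0.43 (adjusted p = 6.54e-07 and 7.74e-07). Both copies of sema5bb, a semaphorin gene, were lower, at −4.43 and −4.37, and sdr16c5a (LOC110530198), of the retinol dehydrogenases, measured 44.9, 31.96 and 21.5 against 904, 548 and 533 CPM. si:ch211-203d1.3 (LOC110504914) and mob3a (LOC110523113) were lower at −4.57 and −4.50.

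Genes of high level that did not differ show what an even RNA looked like in these libraries. By the rule for named genes, 10 had a log2 fold change under 0.1 in size with an SE under 0.2. top2a, the gene of DNA topoisomerase II alpha, measured 619, 564 and 635 CPM in A against 623, 632 and 580.1 in B, so that the sections overlapped. cnot6b (LOC110488610), a deadenylase gene, measured 338, 342 and 352 against 354, 342 and 350.2 CPM. The others were dnmt1, dnmt3bb.2, kpna2 (LOC110538509), the nucleoporin gene ahctf1 (LOC110505350), the catenin gene ctnnd1 (LOC110505049), fbxo30a, nufip2 (LOC110507904) and tesk1a (LOC110500469).

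Salmonids kept many genes in duplicate from a genome duplication in their ancestor, which allows the copies to be compared in the same libraries. Of 2311 symbols with exactly 2 O. mykiss copies tested, both copies were called on the same side for 571 and on opposite sides for 54. For 805 symbols 1 copy was called and for 881 neither. These copies were called more often than all O. mykiss genes, of which 24.3% were called. All of them have a symbol, and in 1937 of the 2311 pairs both were at or above the median level. The counts of pairs are thus a description. With the egg as a block 826 were on the same side and 93 on opposite sides, and with 1 egg left out 292 to 370 and 25 to 30. In the 1937 pairs with both copies at or above the median level, 1464 had the same sign, the log2 fold changes correlated at r = 0.625 across pairs, and the median gap between copies was 0.395 on the log2 scale. Gaps between copies were not tested, and how reads that match both copies were counted is not given in the sources used here.

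Among pairs on opposite sides, rab33ba, a gene for a Rab of the Golgi, had the widest gap. The copy LOC110505008 measured 92.4, 121 and 114 CPM in A against 26.1, 21.9 and 21.6 in B, and the copy LOC110519448 5.16, 9.10 and 4.55 against 49.5, 42.3 and 42.9. In myo18ab, an unconventional myosin gene, LOC110533873 was higher by 1.32 ± 0.28 (adjusted p = 0.00241) and LOC110537246 lower, with 58.03, 37.3 and 26.6 against 726, 318 and 275 CPM. In itsn2b, a gene for an endocytic scaffold, LOC110497555 was higher by 1.53 ± 0.24 and LOC110504245 lower at −2.86 ± 0.35 (adjusted p = 0.000189 and 1.41e-05). als2b, for an activator of Rab5, measured 118, 95.98 and 108 against 39.3, 36.3 and 33.9 CPM in the copy LOC110527488 and 283, 255 and 254 against 1381, 1041 and 963 in the copy LOC110497102. In these 4 symbols each copy had 1 sign in the 3 eggs. This follows from the rule for named genes, which takes only called genes whose sections do not overlap. The animal copies of zgc:123305 (LOC110493972) and cops4 (cops4) lost their call, the first without egg 3 or without 1 of 3 single libraries and the second without any 1 egg or library, while their vegetal copies LOC110528480 and LOC110537062 were lower at −3.61 and −2.94.

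**Figure D5:**
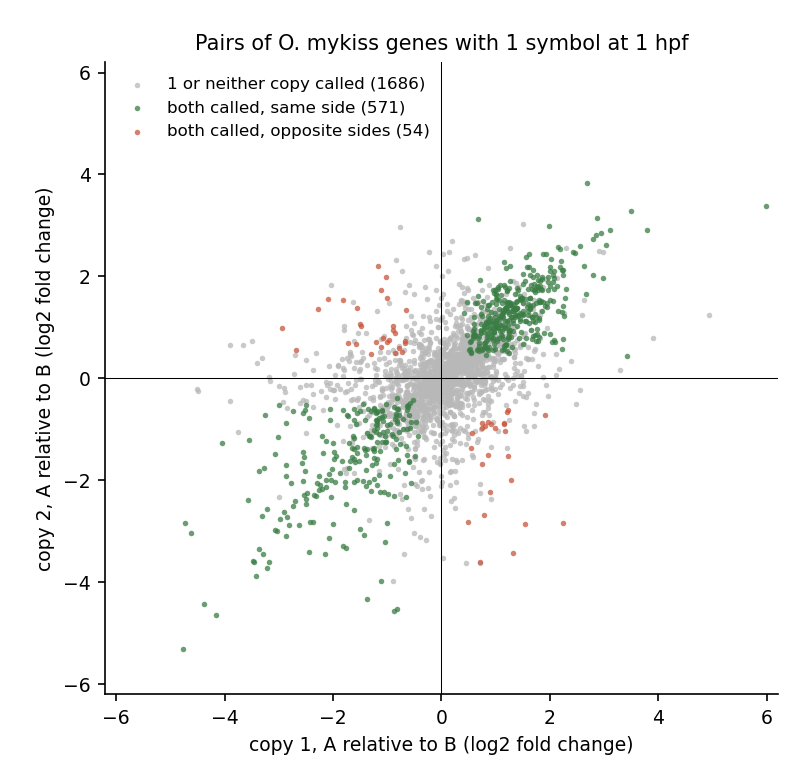
Log2 fold change of section A relative to B at 1 hpf in the 2 copies of each of 2311 symbols, with copy 1 on the x axis and copy 2 on the y axis (by identifier). Green points are the 571 pairs called on the same side, red points the 54 called on opposite sides, and most points lie in the quadrants where the signs are the same.

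The sections of eggs at 0 hpf showed the same sides with fewer calls. There 1230 O. mykiss genes were called (5.41%), 329 higher (1.45%) and 901 lower (3.96%), from 2 libraries per section in place of 3. Of the 2848 genes higher at 1 hpf, 326 were also called higher at 0 hpf, 2830 had the same sign and 0 were called the other way. Of the 2679 lower genes 890 were also called lower, 2655 had the same sign and 0 were called the other way. The median log2 fold change of these genes was 0.69 at 0 hpf against 1.15 at 1 hpf for the higher, and −0.89 against −1.25 for the lower. They were chosen by their values at 1 hpf, so the medians are a description. The animal gene ubr4 stood at 2.03 ± 0.72 at 0 hpf and 4.08 ± 0.65 at 1 hpf, and the copy of atp5fa1 (LOC110525946) at 1.04 ± 0.54 and 2.66 ± 0.47. For the vegetal grip2b (LOC110492486) the values were −3.71 ± 0.53 and −4.73 ± 0.45, and for cracr2b −4.32 ± 0.72 and −5.81 ± 0.63. The change of the section difference from 0 to 1 hpf was tested directly, and edgeR called 0 of 22724 genes (0.0%, 508 at an unadjusted p under 0.05, smallest adjusted p = 1.0), while DESeq2 called 1.

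At 1 dpf, with 3 libraries per section, 3250 genes were higher (14.3%) and 3141 lower (13.8%). Of the genes called at 1 hpf, 2432 of the higher and 2329 of the lower were called on the same side again. The median log2 fold change at 1 dpf was 1.15 over all 2848 genes higher at 1 hpf and −1.28 over all 2679 lower ones. These genes were chosen by their values at 1 hpf, so the medians are a description. hwa stood at −4.64 ± 0.53 at 1 hpf and −3.77 ± 0.50 at 1 dpf, and tubb2b at 2.90 ± 0.35 and 2.46 ± 0.34. For the change of the section difference from 1 hpf to 1 dpf edgeR called 0 genes (0.0%, 289 at an unadjusted p under 0.05, smallest adjusted p = 1.0), and DESeq2 called 0. These tests do not show that the differences were of equal size at the 3 stages.

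Marker genes of other cells were few in the table. Of the follicle markers sought only 3 were found by symbol (col1a1a, col1a2 and runx3). Others, such as cyp19a1a, amh, foxl2a, gsdf and fshr, were not found. The summed level of the 3 was 115 to 151 CPM in section A and 142 to 153 in section B. No blood marker was in the table. The 5 sperm and testis markers summed to 32.7 to 56.1 CPM in section A and 26.1 to 56.9 in section B, and the 2 liver and yolk markers (apoeb and tfa) to 6.91 to 13.9 and 17 to 20.9. edgeR called 0 of the 10 markers without the block, and with the block 3, all lower in section A: col1a2 (adjusted p = 0.00622), apoeb (LOC110537922, adjusted p = 0.00741) and tfa (adjusted p = 0.00197). Their part in the other differences was not tested.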

How the data were processed

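RNA of sections A and B was sequenced from rRNA-depleted, directional libraries, after a LiCl precipitation against yolk inhibitors, per the labels' protocols. The submitters' processing notes name DESeq2 (no version), HTSeq 2.0.4, STAR 2.7.11 and fastp 0.23.4. Genome builds, strand setting and the treatment of reads that match several genes or both parental species are not given in the sources used here, so no coordinates are printed, and levels of near-identical copies are uncertain. The deposited table holds raw counts of 32765 genes in 20 of the 24 samples; replicate 3 of both sections at 0 hpf and 3 dpf was not analysed here. The values of the other deposited tables, which are normalized, were not used.

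edgeR 4.0.16 (R 4.3.3) fitted all 20 libraries with a mean per stage and section, so that 14 libraries of other stages add to the estimate of spread. It used TMM factors, filterByExpr, glmQLFit and glmQLFTest, and Benjamini-Hochberg adjustment over 32502 genes of both species with a threshold of 0.05. The code was tested on simulated data. Log CPM for differences within eggs used a prior count of 2. Sections of 1 number came from the same egg, so the egg was a block in an alternative fit. Their deviations from the section means correlated at 0.751, 0.489 and 0.613 in eggs 1, 2 and 3. Section A of egg 2 correlated with section B of egg 3 at 0.409, and section A of egg 3 with section B of egg 2 at 0.523. Between egg 1 and the other eggs the values ran from −0.662 to −0.524. They set egg 1 apart but do not show a pairing within eggs 2 and 3. Other alternatives were DESeq2 1.42.0, other scaling factors, no filter, fewer libraries, and leaving libraries or eggs out. In the fit without the block, p-values set a difference against a spread estimated among these 20 libraries. That fit treats the sections of 1 egg as independent.

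Sections, gene lists and rules were chosen with earlier results of these data known. Named genes have a symbol, a level at or above the median (2.97 log2 CPM), a call and sections that do not overlap. Of these, the 15 with the largest log2 fold change in each direction, up to 3 per list and direction, the 6 symbols with the widest gap between copies on opposite sides, and 10 even genes were taken, and the text names part of them; 1 is not reported here. Further list members (wnt8a, otx1, wnt11f2, pou5f3, kpna2, zar1, piwil1, ccnb1, ddx4, col1a2, apoeb, tfa, copies of buc, rtn3, sybu, grip2b, ldhbb, tcf7l1a and hook2, and the genes with the most counts) were named after their values were seen. So were mos, iqgap3 and the piRNA pathway genes that were not called.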

Additional observations from a re-analysis of the deposited data

Results flagged for a closer look

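Counts on genes of S. fontinalis, the father's species, were present at 1 hpf in data outside the comparison of maternal genes. They made up 1.01% ± 0.0262 of the counts in section A (SD, n = 3, 0.997% to 1.04%) and 0.963% ± 0.026 in section B (0.933% to 0.980%), with 4853 to 5567 S. fontinalis genes detected. They are listed here because they lie outside that comparison and are above 0, and they were not above the level at 0 hpf, a stage labelled in one place as non-fertilized. There the share was 1.06% and 1.04% in A, and 0.987% and 1.01% in B, with 5124 to 5681 genes detected. At 3 dpf it was 24.0% and 22.4% in A, and 0.982% and 1.02% in B. The counts at 1 hpf are therefore not reported as paternal RNA. The 95% exact binomial (Clopper-Pearson) intervals of single libraries, which cover counting error only, ran from 0.990% to 1.05% in A and from 0.927% to 0.986% in B. edgeR called 399 of the 9778 S. fontinalis genes tested between the sections, against 5527 of 22724 O. mykiss genes. Of the 266 called S. fontinalis genes with a symbol, 230 lay on the side of a called O. mykiss gene of that symbol, 5 on the other side, 21 had O. mykiss genes that were not called or were called on both sides, and 10 had no O. mykiss gene tested. How reads that fit both species were assigned is not given in the sources used here, and its part in these counts was not tested.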

How the results depend on the processing

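Calls of O. mykiss genes at 1 hpf were split nearly evenly between the sides under most alternatives below, while their number moved. With library sizes alone, without scaling factors, clearly more were called higher than lower. DESeq2 called 3799 higher and 3458 lower, RLE factors 2896 and 2627, library sizes alone 3116 and 2372, TMM factors of O. mykiss genes alone 2763 and 2752, and no filter 2838 and 2675. The egg as a replicate block gave 4097 and 3970, and 5210 and 5035 when only the 6 libraries at 1 hpf were fitted. Leaving out 1 library or 1 egg gave 1548 to 2370 higher and 1585 to 2438 lower. Without egg 1, 2 or 3 the test called 1548, 1868 and 1646 higher and 1585, 1859 and 1738 lower, and with the block also 2637, 3283 and 2951 higher and 2467, 3178 and 2817 lower. The change of the section difference gave 0 calls from 0 to 1 hpf, 1 with DESeq2, 0 to 1 in leave-outs, and 1 with the block and without egg 1. From 1 hpf to 1 dpf it gave 0, 0 to 1 in leave-outs, and 6 with the block and without egg 1. Pairs of copies on the same side numbered 571, and 292, 370 and 332 without egg 1, 2 or 3. Those on opposite sides numbered 54, with the block 93, and 26, 30 and 25 without egg 1, 2 or 3. The leave-outs have fewer samples; the cause of the other moves was not tested.

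Of 187 named genes called, all 187 kept their call with DESeq2, with the block, with the 6 libraries alone, without 3 dpf and with no filter. RLE factors lost 1, library sizes 4, and leaving out egg 1, 2 or 3 lost 23, 17 and 20, while 0 reversed. The 187 genes were called in these same libraries before they were refitted, so kept calls are a description and no added support. With the block 49 of 62 list counts stayed within 1.5 times and 13 were larger. The fits with the block and without 1 egg were added after seeing the data. Bins by protein length were not run, because no protein table was at hand. Depth limits the calls of genes with low levels, and the design has 3 eggs, of which 1 stood apart, with no measure of RNA per section.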

Other observations

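The genes that took the most counts differed between the sections. This set was chosen after the values were seen, and counts depend on transcript length as well as on level. The 20 O. mykiss genes with the most counts in section B were all called lower in section A, and of the 20 with the most in section A, 14 were called higher, 1 lower and 5 not. Only 1 gene, kiaa0232 (LOC110500747), was in both sets. A ranking by 1 section favours genes that are higher there, so the sets are a description.

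First in section B was trip6 (LOC110500597), a LIM-domain gene of cell adhesion sites, with 4921, 2883 and 2663 CPM in eggs 1, 2 and 3, against 395, 514 and 422 in section A. Both copies of raver1, an RNA-binding protein gene, were in the set, LOC110486364 with 2776, 1989 and 1794 CPM in B against 356, 339 and 292 in A. slbp2, the oocyte form of the protein that binds the end of histone mRNAs, measured 1699, 1233 and 1092 CPM in B against 81.5, 70.7 and 53.1 in A. The set also held myh9a, mylka, a myosin light chain kinase gene, and a second copy of srcap (LOC110499140).

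First in section A were both copies of kmt2a, a histone methyltransferase gene, with 1337, 1235 and 1484 CPM in section A in the copy LOC110503544 against 136, 404 and 332 in section B. aspm, a spindle pole gene, measured 1089, 1157 and 1254 CPM in A against 149.7, 264 and 242 in B. In egg 1 the vegetal levels of these genes were the lowest of the 3 eggs, and the vegetal levels of trip6, raver1 and slbp2 the highest. The proliferation marker gene mki67 was higher in section A by 0.90 ± 0.19 (adjusted p = 0.00246), and the setd2 gene by 2.03 ± 0.33 (adjusted p = 0.000246), both from edgeR's fit.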
